A study of Mus musculus with 21 samples.

Results

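The genes described here are 28 genes of cholesterol and fatty acid synthesis and their regulators, taken by symbol from the 55400 genes of the count table, and all 28 were found and passed the filter on low counts in every comparison. They comprise the regulators Srebf1, Srebf2 and Insig1, 7 enzymes of the mevalonate steps, 11 enzymes of the squalene and sterol steps, the sterol carrier Stard4 and 6 fatty acid enzymes. They were measured by RNA-seq of poly(A) RNA in 21 libraries, 3 biological replicates in each of 7 groups, from wild-type (WT) C57BL/6 mouse embryonic stem cells differentiated into motor neurons of the hypaxial motor column. Embryoid bodies received 1 µM retinoic acid and 0.5 µM of the Sonic Hedgehog agonist SAG from day 2, and 5 µM of the Notch pathway inhibitor DAPT was added at day 4. Per the study's methods, the medium was changed at day 5 to one with DAPT but without retinoic acid and SAG. The untreated groups were collected at day 4 (D4), 8 h later (D4H8), at day 5 (D5) and at day 6 (D6). The treated groups D4H8 GSKJ4, D5 GSKJ4 and D6 GSKJ4 received GSKJ4, an inhibitor of the histone H3K27 demethylase Kdm6b, for the 1 day before collection. The GSKJ4 dose of these cultures, and whether the untreated cultures received its vehicle, are not given in the sources used here. The stem cells had been kept on mitomycin-treated embryonic fibroblasts, and stem cell markers were still present at D6 (summed FPKM 11.3 to 90.6). GSKJ4 acts on the protein, so no transcript level checks the treatment.

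Cholesterol is built from acetyl-CoA through mevalonate, squalene and lanosterol, and fatty acids are built from the same acetyl-CoA through malonyl-CoA. The transcription factors encoded by Srebf2 and Srebf1 (SREBPs) activate the enzymes of both branches, Srebf2 mainly those of sterol synthesis and Srebf1 mainly those of fatty acid synthesis. When sterols are plentiful, Insig proteins hold the SREBPs in the endoplasmic reticulum, and Insig1 is itself an SREBP target. Neurons extending axons add membrane, and sterol intermediates also act on Hedgehog signalling, the pathway that patterns motor neuron progenitors.

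SREBPs often act together with NF-Y, which binds CCAAT boxes. Of the 28 genes, 22 had an entry in the RefSeq promoter table (GRCm38.p6, 250 bases before to 50 after each start). CCAAT, on either strand, lay in a window of 19 of these 22 (86.4%) and in 41.1% of all 27025 genes in the table. Among the genes with a single window the counts were 16 of 19 and 38.2%. The genes without it were Acat2, Elovl6 and Acaca, and the Acaca window starts inside the annotated gene. The windows that hold the CCAAT boxes of Tm7sf2 and Dhcr7 also lie inside their annotated genes. The full sterol regulatory element was in 0 of the 22 and in 0.0999% of all genes. Its looser form TCACNCCAC was in Hmgcs1 alone, against 1.44% of all genes, and the E-box CACGTG in Hsd17b7, Insig1, Dhcr7 and Sc5d, 18.2% of the 22 against 8.09%. The full element contains a form of TCACNCCAC, and no other pair of these motifs is nested. A match describes letters only, and a missing match says nothing of binding.

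The stretches before the start of 5 genes that recur below are shown, 4 with a CCAAT box and Acat2 without one. All are on GRCm38.p6, written 5′ to 3′ on the strand of the gene and without bases that lie in an annotated exon. Capitals mark the CCAAT box, here always read from the other strand as ATTGG, and the E-box and looser sterol element spelled out above. Hmgcs1 (chr13:119690151-119690350, plus strand), Insig1 (chr5:28071163-28071362, plus strand), Lss (chr10:76531388-76531587, plus strand), Hsd17b7 (chr1:169969242-169969408, minus strand) and Acat2 (chr17:12960748-12960947, minus strand) read as follows.
Hmgcs1: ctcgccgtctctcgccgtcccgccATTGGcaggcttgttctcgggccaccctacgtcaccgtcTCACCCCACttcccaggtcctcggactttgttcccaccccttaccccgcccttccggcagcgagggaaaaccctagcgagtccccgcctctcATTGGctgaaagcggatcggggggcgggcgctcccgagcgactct
Insig1: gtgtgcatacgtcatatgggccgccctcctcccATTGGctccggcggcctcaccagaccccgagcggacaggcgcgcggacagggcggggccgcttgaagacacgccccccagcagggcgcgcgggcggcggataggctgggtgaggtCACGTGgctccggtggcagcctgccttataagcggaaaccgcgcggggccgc
Lss: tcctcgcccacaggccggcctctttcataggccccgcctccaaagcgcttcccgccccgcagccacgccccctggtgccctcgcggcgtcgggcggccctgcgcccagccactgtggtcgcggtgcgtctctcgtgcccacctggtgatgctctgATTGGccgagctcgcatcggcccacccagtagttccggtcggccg
Hsd17b7: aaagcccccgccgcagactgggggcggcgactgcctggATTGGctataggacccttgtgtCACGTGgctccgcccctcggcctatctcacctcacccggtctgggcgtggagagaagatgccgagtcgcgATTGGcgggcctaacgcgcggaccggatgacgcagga
Acat2: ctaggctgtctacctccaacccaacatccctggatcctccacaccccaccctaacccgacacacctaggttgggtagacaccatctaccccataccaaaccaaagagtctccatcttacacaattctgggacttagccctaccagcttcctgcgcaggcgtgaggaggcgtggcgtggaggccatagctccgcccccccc
Hmgcs1 carried both a CCAAT box and the looser sterol element, and Insig1 and Hsd17b7 carried a CCAAT box and an E-box.

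Library totals ran from 14982115 to 34383842 counts. Levels below are the deposited FPKM (fragments per kilobase of exon, scaled to library size). They use 1 exonic length per gene, from 1713 bases for Pmvk to 17074 for Acaca, so an order of levels between genes depends on that length. Fold changes and tests come from the counts, and "rose" and "fell" are kept for genes that edgeR's quasi-likelihood test called, with a Benjamini-Hochberg adjusted p below 0.05. Several markers varied with replicate number. The summed FPKM of 5 embryonic stem cell markers (Pou5f1, Nanog, Zfp42, Esrrb, Dppa5a) was lowest in replicate 1 in 7 of 7 groups, as was that of 5 proliferation genes. The summed FPKM of the 28 genes was highest in replicate 1 in 6 of 7 groups, all but D4. The library of D5 GSKJ4 replicate 2 listed 39381 genes at 0, the most of the 21. The astrocyte genes Gfap and Aqp4 were at 0.18 FPKM or less and 0.07 FPKM or less in each library, and S100b at 0.37 or less. Aldh1l1, the only astrocyte marker tested from D4 to D6, rose from 0.24, 0.18 and 0.25 FPKM to 1.27, 0.67 and 0.92. Its log2 fold change was 2.15 (adjusted p = 0.000823). Of 5 tested oligodendrocyte markers, 3 rose and 1 fell in that comparison. In these bulk samples a smaller number of cells of one type cannot be told apart from less RNA per cell.

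Most of the genes rose over the full course. It covers the exposure to the DAPT added at day 4 and the withdrawal of retinoic acid and SAG, which cannot be told apart from time. From D4 to D6, 22 of the 28 genes rose and 0 fell, where 32.9% of all 17519 genes tested rose and 31.0% fell. The median log2 fold change was 1.07 over the 28 genes and -0.04 over all genes tested. By role, 2 of 3 regulators, 6 of 7 mevalonate enzymes, 9 of 11 sterol enzymes and 5 of 6 fatty acid enzymes rose. In 21 of the 28 genes every D6 library lay above every D4 library, as in 33.5% of all genes, and in 0 the reverse held, as in 35.8% (compared as counts scaled to library size, CPM). Leaving out any 1 library gave 22 to 23 genes called, and leaving out all libraries numbered 1 gave 22.

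Tm7sf2 (chr19:6062821-6068373, minus strand, GRCm38), a sterol reductase, had the largest rise. Its FPKM was 4.00, 5.95 and 4.44 at D4, 7.48, 7.94 and 6.32 at D4H8, 14.5, 12.96 and 13.2 at D5, and 27.1, 22.9 and 22.3 at D6. No library of one stage overlapped those of the next, and the fold change from D4 to D6 fitted to the counts was 5.30 (log2 fold change 2.41, SE 0.16, adjusted p = 2.18e-08). In the annotation, part of the exonic bases of Tm7sf2 are shared with Vps51 on the same strand, and how reads there were assigned is not given in the sources used here. Lss, lanosterol synthase, closes squalene epoxide into the first sterol. Its FPKM was 7.44, 10.7 and 8.25 at D4 and 37.3, 26.6 and 24.5 at D6, again without overlap (log2 fold change 1.83, SE 0.21, adjusted p = 3.6e-06). Hsd17b7, which reduces a sterol ketone, was at 6.26, 6.45 and 5.73 FPKM at D4 and at 23.2, 18.7 and 18.8 at D6 (log2 fold change 1.78, SE 0.19, adjusted p = 1.71e-06). The D4 libraries of Hsd17b7 were close together and far below those of D6.

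**Figure D1:**
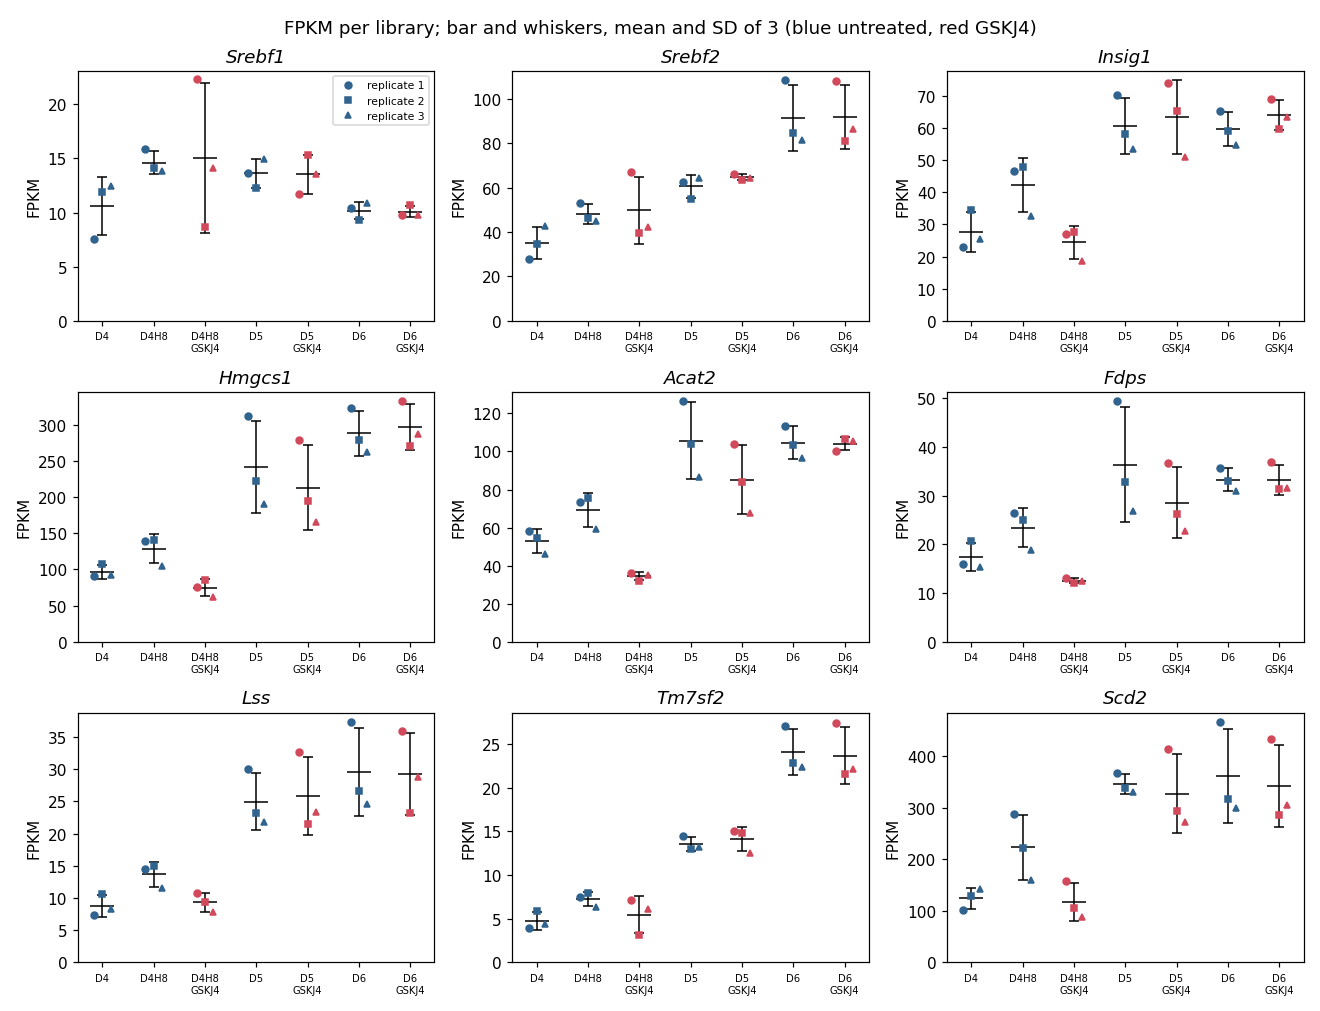
FPKM (vertical axis, from 0) of 9 of the 28 genes in the 7 groups (horizontal axis), with a marker for each replicate, and the mean and SD of 3 as a bar with whiskers. Blue is untreated and red is GSKJ4. Tm7sf2 steps up from D4H8 to D6, and the treated D4H8 libraries of Acat2, 35.9, 31.9 and 35.3, lie below all untreated ones.

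The regulators did not move together. Srebf2 was at 28, 34.7 and 42.7 FPKM at D4, 53.3, 46.4 and 45.0 at D4H8, 62.7, 54.8 and 64.3 at D5 and 109, 84.6 and 81.4 at D6. Each stage lay above the one before without overlap, and the D6 to D4 log2 fold change was 1.47 (SE 0.16, adjusted p = 3.01e-06). Srebf1 was at 7.56, 11.9 and 12.4 FPKM at D4, 15.9, 14.1 and 13.9 at D4H8, 13.6, 12.3 and 15.0 at D5 and 10.4, 9.27 and 10.8 at D6. The D6 libraries of Srebf1 lay within the D4 range, with a log2 fold change of 0.02 (SE 0.15, adjusted p = 0.904), which was -0.17 without D4 replicate 1. Srebf1 shares exonic bases with Rai1 on the other strand. Insig1 was at 22.9, 34.6 and 25.6 FPKM at D4, 46.6, 47.7 and 32.5 at D4H8, 70.4, 58.0 and 53.4 at D5 and 65.3, 59.0 and 54.6 at D6. Its D4 and D4H8 libraries overlapped while both lay below D5 and D6, and the D6 to D4 log2 fold change was 1.18 (SE 0.19, adjusted p = 8.01e-05).

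Among the other enzymes that rose from D4 to D6, log2 fold changes were 1.64 (SE 0.20) for Hmgcs1, which makes HMG-CoA, 1.55 (SE 0.17) for Mvk, mevalonate kinase, and 1.09 (SE 0.12) for Mvd, the decarboxylase that ends the mevalonate steps. The thiolase gene Acat2, farnesyl diphosphate synthase Fdps and phosphomevalonate kinase Pmvk rose by 1.04, 1.01 and 0.89. In the sterol steps the values were 1.54 for Dhcr7, which makes cholesterol from its immediate precursor, 1.44 for squalene epoxidase Sqle, 1.36 for squalene synthase Fdft1, 1.16 for Nsdhl, 1.05 for lanosterol demethylase Cyp51 and 0.69 for the desaturase Sc5d. Fdft1 and Cyp51 share exonic bases with Ctsb and Akap9 on the other strand. In the fatty acid branch, ATP citrate lyase Acly (1.63), the desaturases Scd2 (1.62) and Scd1 (0.88), fatty acid synthase Fasn (0.74) and the elongase Elovl6 (0.62) rose.

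The 6 genes that did not pass the test were Srebf1, Idi1, Msmo1, Ebp, Stard4 and Acaca. Idi1, isopentenyl diphosphate isomerase, stood at 20.7 ± 1.91 FPKM (SD, n = 3) at D4 and 20.6 ± 2.06 at D6, a log2 fold change of 0.05 (SE 0.18). Msmo1 and Ebp, which act between lanosterol and cholesterol, gave -0.15 (SE 0.23) and -0.11 (SE 0.18). Acaca, acetyl-CoA carboxylase, gave -0.01 (SE 0.13) and Stard4 0.32 (SE 0.18).

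The order of the levels changed little at its top. Scd2 was highest at both ends, at 125 ± 20.5 FPKM at D4 and 361 ± 91.0 at D6, followed by Hmgcs1 at 96.9 ± 9.62 and 288 ± 31.5 and Acly at 75.4 ± 11.1 and 221 ± 24.2. The SDs of Scd2 and Hmgcs1 overlapped at D4 and at D6. Tm7sf2 was the lowest of the 28 at D4, at 4.80 ± 1.02 FPKM, and at D6 the lowest was Ebp at 8.27 ± 1.04. By group mean, 16 genes were highest at D6, 9 at D5, 3 at D4H8 and 0 at D4.

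**Figure D2:**
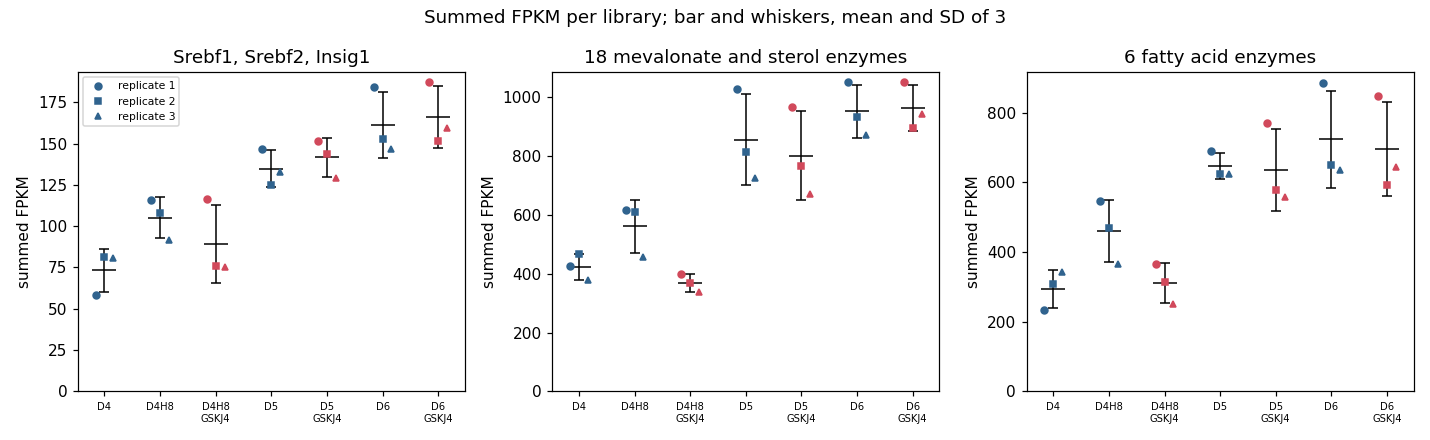
Summed FPKM (vertical axis, from 0) of the regulators, of the 18 mevalonate and sterol enzymes and of the 6 fatty acid enzymes in each library of the 7 groups (horizontal axis), with mean and SD of 3 (blue untreated, red GSKJ4). The mevalonate and sterol sum was 379 to 467 at D4 and 871 to 1051 at D6, and the treated D4H8 libraries, 337 to 399, lie below the untreated ones, 457 to 618.

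The first step, D4 to D4H8, spans 8 h. DAPT was added at day 4, and whether the D4 libraries were collected before that is not given in the sources used here. Time and DAPT cannot be told apart in this step. Of the 28 genes, 1 rose and 0 fell, where 4.06% of all genes rose and 0.32% fell. The median log2 fold change was 0.40 over the 28 genes and -0.02 over all genes, and 27 of 28 values were above 0. Groups did not overlap in 11 genes, all higher at D4H8, where 15.9% of all genes lay wholly above and 8.67% wholly below. The gene called was Mvd, at 19.4, 26.0 and 24.8 FPKM at D4 and 32.8, 37.9 and 30.4 at D4H8. These groups did not overlap (log2 fold change 0.48, SE 0.12, adjusted p = 0.029). However, the call was lost without D4 replicate 1 or 3, without D4H8 replicate 1 or 2, and without all libraries numbered 1. It was also lost with 1 fit over all 21 libraries (adjusted p 0.0045 to 0.146 over the alternatives). Srebf1, Srebf2 and Insig1 gave 0.43 (SE 0.15, adjusted p = 0.142), 0.42 (SE 0.16, adjusted p = 0.193) and 0.57 (SE 0.19, adjusted p = 0.119). The largest value was that of Scd2, 0.81 (SE 0.23, adjusted p = 0.0651). DESeq2 called 5 of the 28 genes, all as higher, and without D4H8 replicate 3 edgeR called 7. Over all genes, DESeq2 called 965 higher and 174 lower of 16218, and edgeR without that library 698 and 45 of 18092.

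Between D4H8 and D5 the count was 12 raised and 1 lowered, where 17.2% of all genes rose and 10.5% fell. The median log2 fold change was 0.43 over the 28 genes and 0.01 over all genes. D5 lay wholly above D4H8 in 18 genes (24.2% of all genes) and wholly below in 1 (19.0%). Risers comprised Insig1, 4 of 7 mevalonate enzymes (Hmgcs1, Pmvk, Fdps, Acat2), 6 of 11 sterol enzymes (Tm7sf2, Lss, Fdft1, Hsd17b7, Sc5d, Dhcr7) and Acly. Hmgcs1 had the largest rise, from 139, 141 and 105 FPKM to 312, 223 and 190, without overlap (log2 fold change 0.92, SE 0.20, adjusted p = 0.00341). Tm7sf2 (0.91, SE 0.16, adjusted p = 0.000667) and Lss (0.87, SE 0.20, adjusted p = 0.00525) followed. The FPKM of Lss went from 14.5, 15.0 and 11.5 to 30.0, 23.2 and 21.7, with every D5 library above every D4H8 library. Acaca, which makes malonyl-CoA, went from 10.2, 10.2 and 10.4 FPKM to 7.38, 8.0 and 8.03 and was the gene that fell (log2 fold change -0.39, SE 0.13, adjusted p = 0.038). Srebf2 gave 0.33 (SE 0.16, adjusted p = 0.145) and Srebf1 -0.10 (SE 0.15, adjusted p = 0.668).

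The counts of this step depended on single libraries. Without D4H8 replicate 2 or 3, 7 or 4 genes were called, and without D5 replicate 1 or 2, 5 or 7. Calls over all genes in these fits were 2363 higher and 1285 lower, 2481 and 1341, 2441 and 1273, and 2554 and 1900. With every library they were 3019 and 1842. The call of Insig1 (adjusted p = 0.0496) was kept in 7 of 20 alternatives, that of Acaca in 11 and those of Hmgcs1, Tm7sf2 and Lss in 20 of 20 each. Same-numbered libraries deviated together here, and with replicate number as a block 16 genes rose and 1 fell. In that fit 3246 of all 17519 genes rose and 2173 fell.

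From D5 to D6, 9 genes rose and 0 fell, where 19.2% of all genes rose and 15.1% fell. The medium change at day 5 falls in this step, so time and the withdrawal of retinoic acid and SAG cannot be told apart. The median log2 fold change was 0.34 over the 28 genes and -0.02 over all genes. D6 lay wholly above D5 in 10 genes (21.6% of all genes) and wholly below in 2 (26.9%). Tm7sf2 (0.95, SE 0.15, adjusted p = 0.000428), Srebf2 (0.71, SE 0.16, adjusted p = 0.00376) and Dhcr7 (0.70, SE 0.13, adjusted p = 0.00131) had the largest rises. Dhcr7 went from 17.3, 20.0 and 20.6 FPKM to 34.5, 26.5 and 25.6, without overlap. Sqle, Mvk, Mvd, Sc5d, Acly and Elovl6 were the other risers. Insig1 gave 0.09 (SE 0.18, adjusted p = 0.739) and Srebf1 -0.31 (SE 0.15, adjusted p = 0.126), with every D6 library of Srebf1 below every D5 library. Without D5 replicate 3 or D6 replicate 1, 5 genes were called. Those fits called 2718 higher and 2288 lower, and 2526 and 1625, of all genes, against 3369 and 2647 with every library. Same-numbered libraries deviated together in this step too, and with the block 13 genes rose, Hmgcs1, Fdft1, Hsd17b7 and Fasn being added, and Msmo1 fell (log2 fold change -0.38 in that fit). Of all 17519 genes, 3645 rose and 3008 fell with the block.

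Of the 22 genes that rose over the course, 8 were called in the step to D5 alone, 5 in the step to D6 alone, 4 in both and 5 in neither. These steps share libraries, so their values are given side by side without a test of the difference. Hmgcs1 gave 0.92 and then 0.37, Lss 0.87 and then 0.36, and Fdps 0.64 and then -0.02. Srebf2 gave 0.33 and then 0.71, and Sqle 0.39 and then 0.69.

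**Figure D3:**
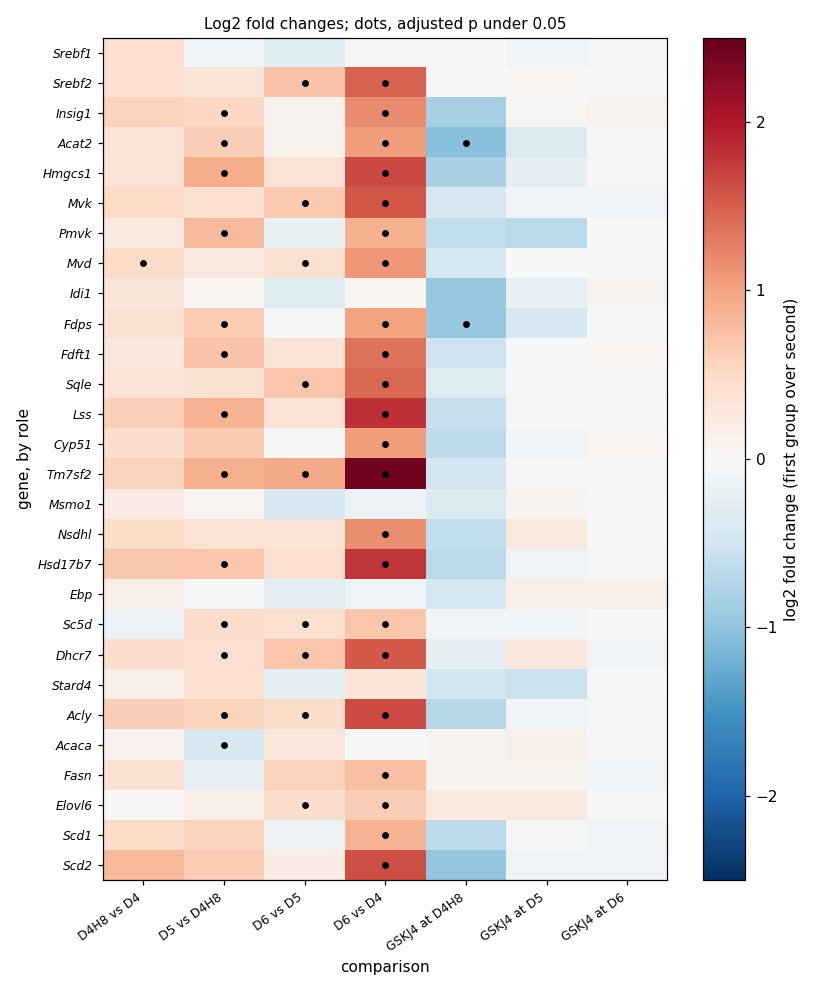
Log2 fold change (colour, first group over second) of the 28 genes (vertical axis, ordered by role) in 7 comparisons (horizontal axis). Dots mark genes called by edgeR at an adjusted p below 0.05, which were 22 genes for D6 vs D4, 2 for GSKJ4 at D4H8 and 0 for GSKJ4 at D5 and at D6.

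Markers moved over the same course. From D4 to D6, 5 of 5 proliferation genes fell and 5 of 5 pan-neuronal and 6 of 6 postmitotic motor neuron genes rose. Of 5 motor neuron progenitor markers 1 rose and 3 fell, and of 5 stem cell markers 0 rose and 1 fell. Of 6 fibroblast markers (Col1a1, Col1a2, Col3a1, Postn, Lum, Dcn) 2 rose and 0 fell. Their summed FPKM was 3.7 to 16.3 at D4 and 11.5 to 25.8 at D6. The summed FPKM of the pan-neuronal genes went from 30.7 to 62.4 at D4 up to 2504 to 2766 at D6, and that of the proliferation genes from 363 to 411 down to 25.4 to 75.01. The part of this change in cell makeup in the rise of the synthesis genes was not tested.

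GSKJ4 was examined at each stage against the untreated cells of that stage, which are also the cells of the stage comparisons above. At D4H8, 2 of the 28 genes fell and 0 rose, where 1.85% of all 16269 genes tested fell and 2.11% rose. The median log2 fold change was -0.49 over the 28 genes and 0.02 over all genes. All 18 mevalonate and sterol enzymes had values below 0 (median -0.55), and the values above 0 were those of Acaca, Fasn and Elovl6. For Mvk, Pmvk, Mvd and Tm7sf2 among the 18, nearly all of the difference lay in treated replicate 2. Against the same-numbered untreated library their log2 CPM ratios there were -0.998, -2.26, -1.09 and -1.33. In replicates 1 and 3 they ran from -0.17 for Mvk to 0.07 for Pmvk. The ratios of Ebp in replicates 1, 2 and 3 were -0.33, -1.11 and 0.18, and those of Sc5d -0.01, -0.32 and 0.23. Dhcr7 gave 0.11, -0.54 and -0.26. Treated replicate 2 stood apart in its counts, with a mean chi-square per gene of 117 and 96.7 against treated replicates 1 and 3. Replicates 1 and 3 gave 37.4 against each other. Without treated replicate 2 the 18 values were still below 0, with a median of -0.59. In 11 genes every treated library lay below every untreated one, as in 14.3% of all genes, and in 0 wholly above, as in 18.5%. The 11 were Insig1, Acat2, Hmgcs1, Idi1, Fdps, Lss, Cyp51, Hsd17b7, Acly, Scd1 and Scd2.

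Acat2 (chr17:12942890-12960747, minus strand, GRCm38), the thiolase that makes acetoacetyl-CoA, was at 73.4, 75.6 and 59.1 FPKM in untreated and 35.9, 31.9 and 35.3 in treated D4H8 cells. The groups did not overlap (log2 fold change -1.05, SE 0.17, adjusted p = 0.0204). Fdps (chr3:89093588-89101959, minus strand), which makes farnesyl diphosphate and shares exonic bases with Gm43738 on the same strand, was at 26.5, 25.0 and 18.9 FPKM in untreated and 13.02, 12.1 and 12.4 in treated cells, also without overlap (log2 fold change -0.95, SE 0.19, adjusted p = 0.033). For both genes the treated libraries also lay below all 3 D4 libraries. Insig1 was at 46.6, 47.7 and 32.5 FPKM in untreated and 27.0, 27.6 and 18.6 in treated cells, without overlap but not called (log2 fold change -0.82, SE 0.25, adjusted p = 0.083).

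The SREBP genes themselves had values near 0. Srebf2 was at 53.3, 46.4 and 45.0 FPKM in untreated and 67.2, 39.7 and 42.3 in treated cells, and Srebf1 at 15.9, 14.1 and 13.9 and at 22.4, 8.66 and 14.1. In both, treated replicate 1 was the highest and treated replicate 2 the lowest of the 6 libraries. The log2 fold changes were -0.00 (SE 0.22) for Srebf2 and -0.02 (SE 0.28) for Srebf1. Without treated replicate 2 they were 0.09 and 0.23. Scd2 (-0.97, adjusted p = 0.0832), Idi1 (-0.95, adjusted p = 0.0631), Hmgcs1 (-0.81, adjusted p = 0.0716) and Acly (-0.70, adjusted p = 0.0829) were not called.

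**Figure D4:**
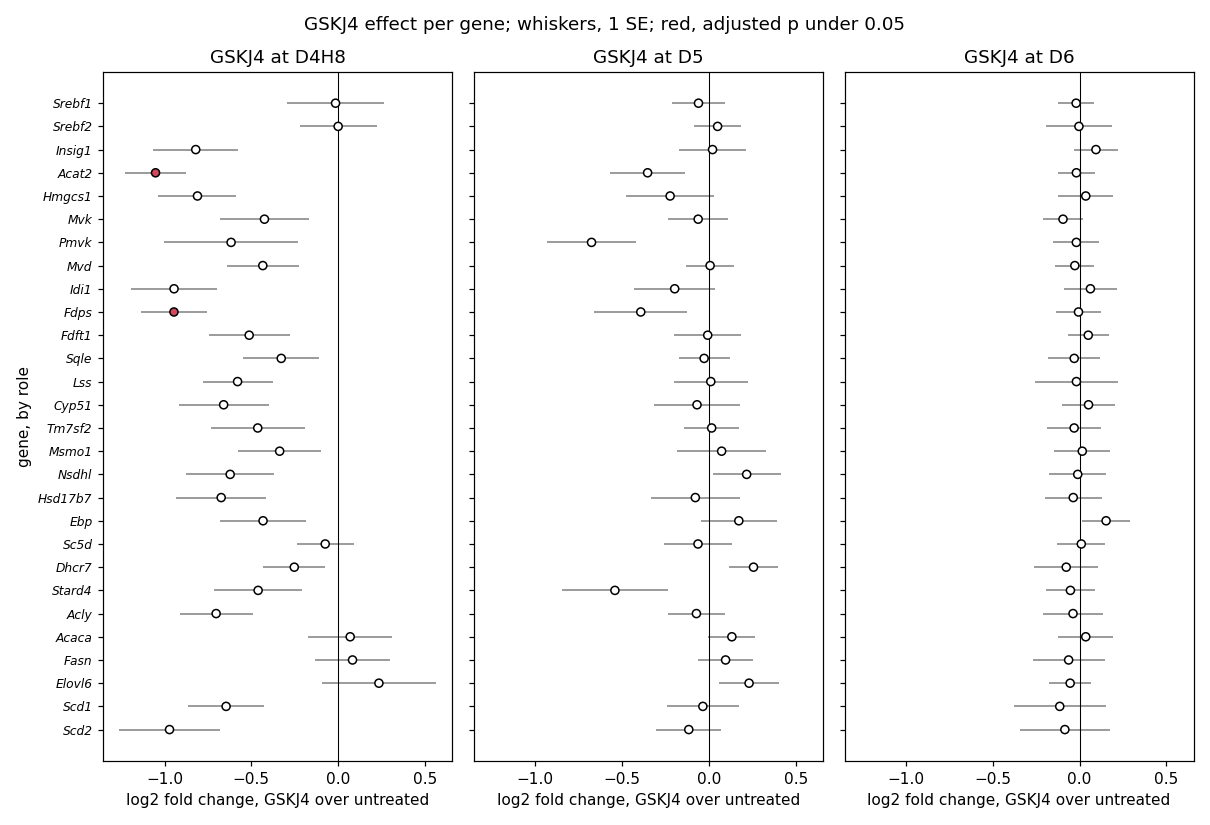
Log2 fold change of GSKJ4 over untreated cells (horizontal axis) for each of the 28 genes (vertical axis, ordered by role) at D4H8, D5 and D6. Whiskers are 1 SE and red marks an adjusted p under 0.05, reached by Acat2 (-1.05) and Fdps (-0.95) at D4H8. The D5 values run from -0.68 to 0.26 and the D6 values from -0.11 to 0.15.

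The D4H8 count rested on single libraries. Without D4H8 replicate 1, 2 or 3, or without all libraries numbered 1, 0 genes were called. Calls over all genes dropped in these fits too, to 2 higher and 41 lower, 3 and 47, 3 and 44, and 1 and 71. With every library they were 343 and 301. Without treated replicate 1 or 3, 1 gene was called, and without treated replicate 2, 7 genes, all of them lower. The all-gene calls without treated replicate 1 were 193 higher and 348 lower, and without treated replicate 3, 266 and 184. DESeq2 called 7, adding Acly, Scd2, Insig1, Idi1 and Hmgcs1. Over all genes, DESeq2 called 1136 higher and 838 lower of 15456. Without treated replicate 2, edgeR called 998 and 748 of 16694. Beside these values, 2 of 5 motor neuron progenitor markers and 3 of 6 postmitotic motor neuron markers fell with GSKJ4 at D4H8, among them Olig2 (log2 fold change -3.91, SE 0.51, adjusted p = 0.0103) and Isl1 (-2.44, SE 0.32, adjusted p = 0.0103). The summed progenitor markers were 218 to 295 FPKM in untreated and 57.8 to 116 in treated cells. The summed proliferation genes were 355 to 375 and 219 to 369, and the summed stem cell markers 55.2 to 236 and 108 to 243. Their part in the lower synthesis genes was not tested.

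At D5 and D6, GSKJ4 gave 0 calls among the 28 genes, where 0.00613% and 0.0% of all genes rose and 0.0% and 0.0% fell. The count at an unadjusted p under 0.05 was 1 of 28 at D5 and 0 of 28 at D6, and DESeq2 called 0 and 0. Over all genes, 377 higher and 390 lower of 16309 passed that threshold at D5, and 88 and 134 of 16301 at D6. The median log2 fold changes were -0.03 and -0.02 over the 28 genes and -0.02 and 0.00 over all genes. At D5 the largest values were 0.26 (SE 0.14) for Dhcr7 and 0.23 (SE 0.17) for Elovl6, and the lowest -0.68 (SE 0.26) for Pmvk and -0.54 (SE 0.31) for Stard4. Pmvk, mevalonate phosphate kinase, was at 43.8, 28.02 and 26.4 FPKM in untreated and 23.8, 15.8 and 23.9 in treated D5 cells, without overlap. Dhcr7 was at 17.3, 20.0 and 20.6 and at 24.3, 25.3 and 21.6 FPKM, also without overlap. Elovl6 was at 25.3, 30.8 and 26.3 and at 38.4, 33.7 and 27.4 FPKM, and Stard4 at 20.4, 14.2 and 12.2 and at 15.3, 6.96 and 10.7 FPKM, with overlap in both. Groups did not overlap in 3 genes, with Dhcr7 and Acaca wholly above (6.44% of all genes) and Pmvk wholly below (5.13%). In treated D5 cells Srebf1 was at 11.7, 15.3 and 13.6 FPKM, Srebf2 at 66.1, 63.5 and 64.4 and Insig1 at 73.95, 65.2 and 51.04. All 3 overlapped their untreated ranges, and the log2 fold changes of Srebf1, Srebf2 and Insig1 were -0.06, 0.05 and 0.02.

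At D6 the values lay in a narrow range. Ebp was at 7.82, 9.46 and 7.54 FPKM in untreated and 9.49, 8.74 and 9.48 in treated cells (log2 fold change 0.15, SE 0.14), and Insig1 at 65.3, 59.0 and 54.6 and at 69.2, 59.6 and 63.4 (0.09, SE 0.13). The lowest were Scd1 (-0.11, SE 0.27), at 46.3, 29.3 and 30.9 and at 42.2, 25.1 and 31.7 FPKM, and Mvk (-0.10, SE 0.12), at 27.0, 25.4 and 23.9 and at 25.6, 23.9 and 22.2. The groups overlapped in these 4 genes, and groups were wholly apart in 0 of the 28, where 2.82% of all genes lay wholly above and 2.48% wholly below. Over the 28 genes, the lowest bound of the 95% intervals of the log2 fold change was -0.64 and the highest 0.45, in the fit without a replicate block. Same-numbered libraries deviated together in this comparison, and with the block 48 of all 16301 genes rose and 209 fell. In that fit 0 of the 28 genes were called, the log2 fold changes ran from -0.11 to 0.16, and the lowest adjusted p was 0.398. Srebf1 was at 9.77, 10.7 and 9.79 FPKM and Srebf2 at 108, 80.9 and 86.5 in treated D6 cells, both overlapping the untreated cells, with log2 fold changes of -0.02 and -0.00.

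The difference of the GSKJ4 effects between stages was tested directly. Neither D5 minus D4H8 nor D6 minus D4H8 gave a call among the 28 genes, where 0.232% and 0.552% of all 18103 genes had a higher and 0.0166% and 0.182% a lower effect. DESeq2 called 0 and 1, and 4 and 7 of the 28 had an unadjusted p under 0.05. Of all 18103 genes, 905 higher and 912 lower passed that threshold for D5 minus D4H8, and 1294 and 1183 for D6 minus D4H8. Over all genes DESeq2 called 158 higher and 78 lower of 17524, and 291 and 289 of 15471. The medians over the 28 genes were 0.50 and 0.56, against -0.06 and 0.00 over all genes. For D6 minus D4H8 the largest values were 1.05 (SE 0.27, adjusted p = 0.0871) for Acat2 and 1.02 (SE 0.36, adjusted p = 0.208) for Idi1, and the lowest -0.28 (SE 0.37) for Elovl6 and -0.14 (SE 0.31) for Fasn. For D5 minus D4H8 they were 0.85 (SE 0.41) for Scd2 and 0.84 (SE 0.34) for Nsdhl, and -0.09 (SE 0.41) for Stard4 and -0.07 (SE 0.46) for Pmvk. Insig1 gave 0.83 and 0.93, Srebf2 0.04 and 0.01 and Srebf1 -0.06 and 0.01. Idi1 was at 29.6, 28.6 and 21.4 FPKM in untreated and 13.4, 17.4 and 11.2 in treated D4H8 cells, and at 22.96, 19.3 and 19.4 and 24.4, 18.7 and 21.8 at D6. Its groups were apart at D4H8 and overlapped at D6. Nsdhl, a sterol dehydrogenase, was at 25.99, 20.4 and 14.4 and 13.4, 14.9 and 12.1 FPKM at D4H8 and at 24.7, 29.3 and 25.01 and 38.7, 30.8 and 24.8 at D5. Fasn was at 57.3, 54.2 and 52.7 and 76.8, 54.6 and 46.9 FPKM at D4H8 and at 77.99, 58.5 and 57.1 and 75.3, 55.5 and 55.5 at D6. For Nsdhl and Fasn these groups overlapped at each stage. Scd2 was at 287, 222 and 160 and 158, 106 and 87.6 FPKM at D4H8, apart by a small gap, and at 367, 339 and 331 and 415, 294 and 273 at D5, with overlap.

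Related genes outside the 28 were counted from lists chosen from general knowledge. Of 12 further genes of SREBP processing, sterol uptake and sterol synthesis, 6 rose and 2 fell from D4 to D6. Among them were Lpin1 (log2 fold change 3.03, SE 0.21), a phosphatidate phosphatase, Aacs (1.81, SE 0.19), which activates acetoacetate, and Tmem97 (-2.28, SE 0.27), a sterol-binding membrane protein. Of 11 tested genes of sterol efflux and storage, 5 rose, Abca7 (2.45), Abca1 (1.72) and Mylip (1.36) among them, and 2 fell, with Soat1, which esterifies cholesterol, at -1.36. Of 19 tested genes of other fatty acid synthesis and desaturation, 8 rose, among them the citrate carrier Slc25a1 (1.74), acetyl-CoA synthetase Acss2 (2.08) and the desaturases Fads1 (1.19) and Fads2 (0.74), and 4 fell. Over all genes 32.9% rose and 31.0% fell in this comparison. Of 14 fatty acid oxidation genes 5 rose and 3 fell, with Cpt1a, which commits fatty acids to mitochondrial oxidation, at 3.77, Ppargc1a at 3.18 and Hadh at -1.53. The medians of these lists were 0.34, 0.42, 0.03 and 0.23, against 1.07 for the 28 genes.

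With GSKJ4 at D4H8, 0 of the 12 further SREBP and sterol genes were called by edgeR, and their median was -0.01, with 6 values above and 6 below 0. Of these, 1 had an unadjusted p under 0.05 and was called by DESeq2, namely Scap, which escorts the SREBPs from the endoplasmic reticulum (log2 fold change 0.61, SE 0.17, edgeR adjusted p = 0.0755). Of the 11 tested genes of sterol efflux and storage edgeR and DESeq2 called 0, with 2 at an unadjusted p under 0.05 and a median of 0.10. Of the 19 tested genes of other fatty acid synthesis edgeR called 0 and DESeq2 3, with 6 at an unadjusted p under 0.05 and a median of -0.06. Over all 16269 genes that edgeR tested, 2290 higher and 1795 lower had an unadjusted p under 0.05. DESeq2 called 1136 higher and 838 lower of 15456.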

How the data were processed

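RNA was measured by poly(A)-selected RNA-seq in 21 libraries. Per the study's methods, the authors trimmed reads with Fastp, ran HISAT2 against mm10 and used HTSeq for counting. They deposited a table of raw counts and one of FPKM, which differed from FPKM recomputed from those counts by at most 0.005. The counting strand is not given in the sources used here. Groups and replicate numbers came from the labels. Positions are those of GENCODE M21 (GRCm38), and 55140 of 55400 identifiers had a symbol. No 2 libraries held identical columns.

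Counts were tested with edgeR 4.0.16 (R 4.3.3) by quasi-likelihood F tests after TMM scaling and filterByExpr with a minimum count of 10, with Benjamini-Hochberg adjustment over all genes tested. Stage comparisons used the 12 untreated libraries, GSKJ4 comparisons 6 each, and differences between stages 18. SEs are the log2 fold change divided by the square root of F. Intervals are 1.96 SE each side, a normal approximation that can be too narrow with 3 libraries per group. The code was tested on simulated data. Alternatives were DESeq2 1.42.0, 2 other scalings (upper quartile, RLE), dropping the filter, requiring 10 counts in each library, replicate number as a block, 1 fit over all 21 libraries, and leaving out each library. Leaving out all libraries numbered 1 was added after seeing the data. Replicate numbers were taken to pair libraries where all 3 same-number correlations of deviations from the group means exceeded 0.1. This held for D5 vs D4H8 (0.137 to 0.315), D6 vs D5 (0.144 to 0.31) and GSKJ4 at D6 (0.316 to 0.663). Values in every library were given for the 3 regulators always, and per comparison for the called genes with the 3 largest rises and falls, or the 2 largest values each way where none was called. Of each related list at most 4 genes per comparison were named, those called with the lowest p, except that some results for these lists are not reported here. Other genes were named after their values were seen. The genes and lists were chosen with earlier results of these data known. Promoter windows were those of RefSeq.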

Additional observations from a re-analysis of the deposited data

How the results depend on the processing

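Of 28 genes, those called from D4 to D4H8 (1) numbered 5 with DESeq2, 8 with no filter, 7 with a replicate block, 0 with 1 fit over all 21 libraries, 0 without all libraries numbered 1, and 0 to 7 without single libraries. From D4H8 to D5 (13) they numbered 5 with 1 fit over all libraries and 4 to 16 without single libraries. From D5 to D6 (9) they numbered 5 with 1 fit over all libraries, 5 with upper-quartile scaling, 14 with the replicate block and 5 to 9 without single libraries. With GSKJ4 at D4H8 (2) they numbered 7 with DESeq2, 7 with 1 fit over all libraries, 9 with no filter, 8 with the replicate block, 0 without all libraries numbered 1, and 0 to 7 without single libraries. For the GSKJ4 effect at D6 minus D4H8 (0) they numbered 1 with DESeq2, 1 with at least 10 counts in every library, 4 with no filter and 4 with the block. Calls over all genes moved as well. From D4 to D4H8 they were 711 higher and 56 lower, 1055 and 264 with no filter, and 838 and 107 with the block. For that step, 1 fit over all 21 libraries gave 413 and 9, and leaving out all libraries numbered 1 gave 511 and 38. From D4H8 to D5 they were 3019 and 1842, and 2064 and 1154 with 1 fit over all libraries. From D5 to D6 they were 3369 and 2647, and 2210 and 1983 with 1 fit over all libraries. With GSKJ4 at D4H8 they were 1229 and 1058 with no filter, and 1235 and 1039 with the block. With 1 fit over all libraries they were 1058 and 990. For D6 minus D4H8 they were 100 and 33, 414 and 212 with no filter, and 304 and 187 with the block. The cause of these differences was not tested. D6 vs D4 kept within 1.5 times of 22, and GSKJ4 at D5 and D6 and the D5 minus D4H8 difference stayed at 0, in every alternative run.

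Where numbers were not taken as paired, same-number correlations ran from 0.0729 (D4H8 vs D4), 0.0244 (D6 vs D4), 0.0731 (GSKJ4 at D4H8) and 0.0384 (GSKJ4 at D5), and in 3 of 3 numbers each exceeded the mean over other numbers, a hint from the data only. Of 54 values of named genes, 18 changed sign in some alternative, and 0 of the 18 were called. Without single libraries, Insig1 ran from -0.0206 to 0.24 for D6 vs D5 and from -0.14 to 0.17 for GSKJ4 at D5. Srebf1 ran from -0.17 to 0.10 for D6 vs D4, -0.40 to 0.23, -0.14 to 0.0054 and -0.0922 to 0.0304 for GSKJ4 at D4H8, D5 and D6, and -0.30 to 0.33 and -0.24 to 0.39 for D5 and D6 minus D4H8. Srebf2 ran from -0.25 to 0.13, -0.0222 to 0.0943 and -0.17 to 0.17 for GSKJ4 at D4H8, D5 and D6, and -0.12 to 0.30 and -0.16 to 0.26 for the differences. Scd1 for GSKJ4 at D6 ran from -0.37 to 0.17, Stard4 and Pmvk for D5 minus D4H8 from -0.46 to 0.27 and -0.44 to 0.25, and Elovl6 and Fasn for D6 minus D4H8 from -0.54 to 0.27 and -0.33 to 0.0651. Without libraries numbered 1, Srebf1 was -0.18 (D6 vs D4), 0.0242 (GSKJ4 at D5), 0.0268 (GSKJ4 at D6) and 0.34 (D5 minus D4H8), Srebf2 0.0084 (GSKJ4 at D6) and Pmvk 0.40 (D5 minus D4H8). With upper-quartile scaling, Srebf1 was -0.14 (D6 vs D4) and -0.0033 (D6 minus D4H8), and Srebf2 0.0004 and 0.0014 (GSKJ4 at D4H8 and D6) and -0.0043 (D6 minus D4H8). With 1 fit over all libraries, Srebf1 was -0.0164 for D6 vs D4 and -0.0171 for D6 minus D4H8, and Srebf2 0.0005 (GSKJ4 at D4H8) and -0.0159 (D6 minus D4H8). For D6 minus D4H8, Srebf1 and Srebf2 were -0.0323 and -0.0332 with DESeq2, -0.0314 and -0.0323 with RLE scaling, and -0.0084 and -0.0076 with at least 10 counts in every library. For D6 vs D4 the median over all genes was -0.04 with TMM and -0.19 with upper-quartile scaling, with calls of 5761 higher and 5427 lower against 5144 and 6342. For D6 vs D5 the calls were 3369 and 2647 against 2912 and 3251. Over all genes, GSKJ4 at D4H8 gave 343 higher and 301 lower, against 1136 and 838 with DESeq2 and 2 and 41 without D4H8 replicate 1.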
